A study of Arabidopsis thaliana with 24 samples.

Results

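In developing Arabidopsis thaliana seeds, 257 of 27827 measured loci, 0.924%, were higher at 20 than at 15 days after pollination (DAP) by at least 1 log2 unit in both total and polysomal RNA. The loci were chosen from group means of log2 levels over 3 arrays. A locus was kept where 20 minus 15 DAP was at least 1 in each fraction, where its total RNA mean at 20 DAP was at least 5, and where it lay outside the mitochondrial and plastid genomes. Of 27720 loci outside the organelles, 976 met the condition in total RNA, 712 met it in polysomal RNA and 315 met both, and the minimum level left 257. Another 489 loci of sufficient level met the condition in total RNA only, and 138 met it in polysomal RNA only. Every value at 15 and 20 DAP of these loci therefore describes the choice and carries no test.

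The seeds came from unmodified plants of the accession Col-0, grown in 3 blocked replicates that were each a bulk of several plants. Total RNA and polysomal RNA were measured at 12, 15, 18 and 20 DAP, with 3 biological replicates in each of the 8 groups of fraction and stage, on 24 one-colour arrays. No mutant, treatment or other accession was included. Whole seeds hold embryo, endosperm and seed coat together, so fewer cells of a type and less RNA per cell cannot be told apart.

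Polysomes are transcripts loaded with several ribosomes, and a transcript found there is usually being translated. During seed filling the embryo takes up sugars and amino acids from the mother plant and lays down oil and protein. Late in maturation this supply stops, chlorophyll is lost, the seed dries, and transcripts are stored for germination. Hexose carriers, trehalose-phosphate synthase-like proteins and dark-inducible genes are known in leaves and seedlings to respond to sugar supply. Nitrate and amino acid carriers move nitrogen within the plant, and nitrate and nitrite reductase assimilate it.

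The 12 DAP arrays stood apart. Their replicates correlated at 0.739 to 0.851 over loci, against 0.955 to 0.990 later, and the SD of levels over loci was 1.39 to 1.71 on each array, against 2.13 to 2.43. Replicates at 12 DAP had a median SD of 0.532 for total and 0.567 for polysomal arrays, and those of later stages 0.175 to 0.301. All 9 seed coat markers and all 4 silique valve markers were lower at 18 than at 12 DAP in both fractions, while 1 of 6 embryo markers was higher and 2 were lower. In total RNA the mean log2 level over the seed coat markers was 7.4 to 7.9 on the 12 DAP arrays, 3.35 to 3.5 at 15 DAP and 2.77 to 3.05 on the arrays of 18 and 20 DAP. Over the embryo markers it was 9.49 to 9.72 at 12 DAP, 9.92 to 10.02 at 15 DAP and 8.93 to 9.11 at 20 DAP, and over 5 endosperm markers 5.78 to 6.36, 4.57 to 4.85 and 4.2 to 4.44. None of these markers was among the 257 loci, and the part of tissue composition in the results was not tested. At 18 DAP the third total RNA array had a median over the 257 loci of 6.22, against 6.66 and 6.52 on the other two.

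Most of the difference between 15 and 20 DAP was already present at 18 DAP. The median level of the 257 loci in total RNA was 4.67 at 12 DAP, 5.11 at 15 DAP, 6.44 at 18 DAP and 6.69 at 20 DAP. In polysomal RNA the medians were 4.69, 5.603, 6.78 and 6.88. All 257 loci had a higher mean at 18 than at 15 DAP in both fractions. The choice favoured low values on the 15 DAP arrays, so differences from 15 DAP lean upward and were not tested. The median locus had reached 82.4% of its total RNA difference and 90.3% of its polysomal difference by 18 DAP, and 24 loci in total and 43 in polysomal RNA were higher at 18 than at 20 DAP. Over all loci the median 20 minus 15 DAP difference was 0.003 in total and -0.015 in polysomal RNA. Among the 9939 loci outside the organelles with a total RNA mean of at least 5 at 20 DAP it was 0.23 and 0.09. The median 18 minus 15 DAP difference of the 257 loci was 1.22 in total and 1.17 in polysomal RNA. It was 0.15 and 0.10 among the 9939 loci, and -0.006 and -0.026 over all loci.

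**Figure D1:**
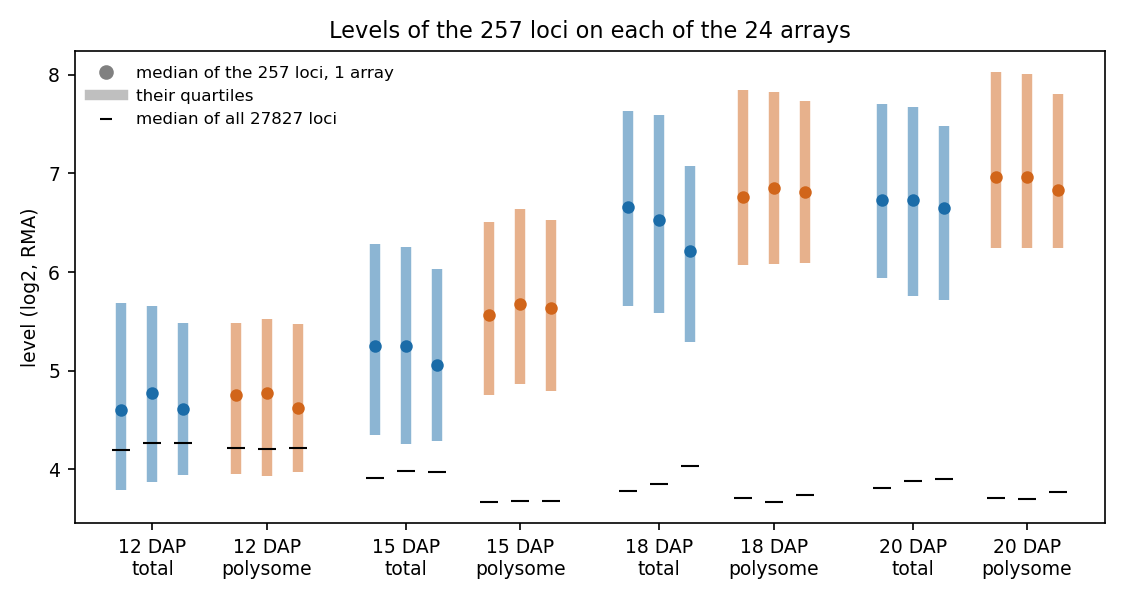
The vertical axis is the log2 level and each position is 1 array, grouped by stage and fraction. Dots are medians of the 257 loci, thick bars their quartiles and short black lines the median of all 27827 loci. The medians of the 257 loci lie between 4.60 and 4.77 on the total RNA arrays of 12 DAP and between 6.65 and 6.73 on those of 20 DAP.

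The 20 minus 15 DAP differences reached 2.80 in total and 2.63 in polysomal RNA, with medians of 1.42 and 1.28. A total of 161 loci had the larger difference in total RNA. At least 2 log2 units were reached by 26 loci in total RNA, by 11 in polysomal RNA and by 3 in both. The total RNA means at 20 DAP ran from 5.02 to 10.68, and 46 were at least 8. The values on the 15 and 20 DAP arrays did not overlap for 252 loci in total and 256 in polysomal RNA. The choice on these same arrays favours such a separation, and the share over all loci was not counted. The rhamnose synthase gene RHM3 overlapped in both. Just inside the limits were AT4G34881 at 1.01 and UGT73C7 at 1.01 in total RNA, SIS at 1.0004 and AT3G44330 at 1.01 in polysomal RNA, and AT1G30890 at a level of 5.02 and WRKY33 at 5.06. Just outside were AT5G14430 at 0.995 and AT1G53210 at 0.994 in total RNA, EMB3012 at 0.9996 and CYP705A4 at 0.999 in polysomal RNA, and AT4G03505 at a level of 4.99 and AT2G34340 at 4.99.

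**Figure D2:**
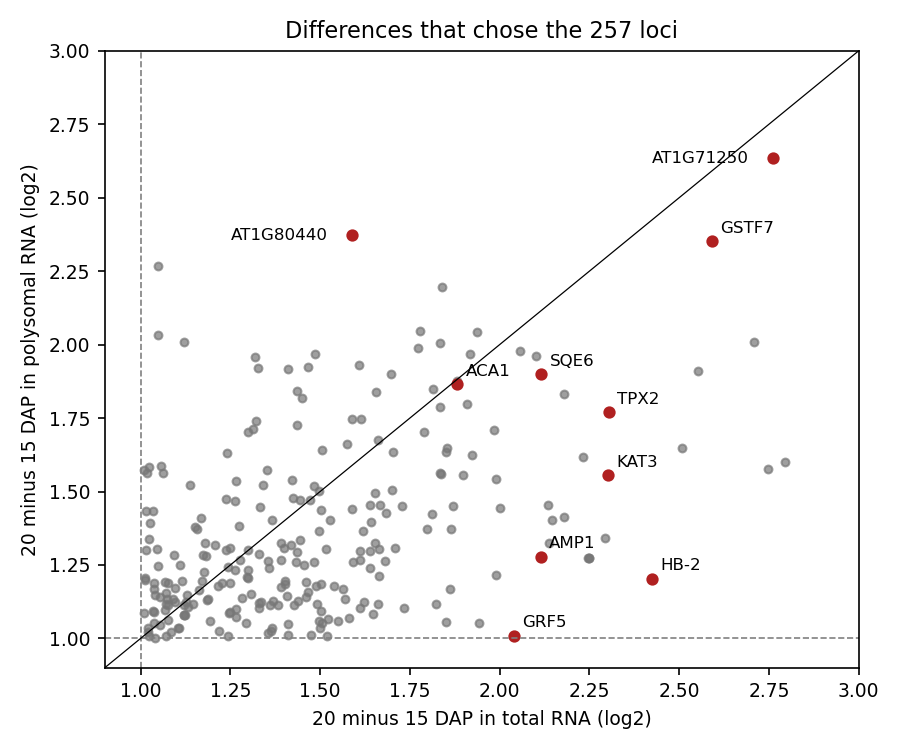
Each point is 1 of the 257 loci, with its 20 minus 15 DAP difference in total RNA on the horizontal axis and in polysomal RNA on the vertical axis, both in log2 units. Dashed lines mark the limit of 1 in each fraction the solid line marks equal differences, and named loci are red. AT1G71250 lies highest at 2.76 and 2.63, while HB-2, at 2.42 and 1.20, is far to the total RNA side.

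The largest difference in total RNA was that of AT4G20362, at 2.80, with 1.60 in polysomal RNA. AT1G71250, which carries no gene name in the RefSeq table, had the largest difference in polysomal RNA, 2.63, and the second largest in total RNA, 2.76. In total RNA it measured 7.72, 7.30 and 7.17 at 12 DAP, 3.35, 4.01 and 3.92 at 15 DAP, 5.70, 5.63 and 4.67 at 18 DAP and 6.45, 6.46 and 6.65 at 20 DAP. The 15 DAP arrays were thus the lowest and did not overlap with any other stage. GSTF7, a phi-class glutathione S-transferase of detoxification, measured 2.60, 3.28 and 3.19 in total RNA at 15 DAP and 5.59, 6.09 and 5.17 at 20 DAP. Its 3 total RNA arrays of 18 DAP, at 5.05, 5.79 and 3.45, were spread widely, with the third close to 15 DAP. The third locus by this measure, AT4G39780, measured 5.26, 4.05 and 4.51 in total RNA at 15 DAP and 7.28, 7.30 and 7.37 at 20 DAP. The other 9 loci with the largest differences were AT4G36010, AT3G47800, AT1G03230, AT5G17540, AT4G21500, SQE6, AT1G03220, the calcium pump gene ACA1 and AT5G42830. For each of them the smaller of both differences lay between 1.84 and 1.98. SQE6, named a squalene monooxygenase, an enzyme class of sterol synthesis, was the most abundant of the 12 at 20 DAP, with 9.43, 9.19 and 9.24 in total RNA against 6.79, 7.04 and 7.69 at 15 DAP. AT1G03220 and AT1G03230 are neighbours on chromosome 1.

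The arrays of 12 and 18 DAP played no part in the choice, so the change between them was tested with limma over all 27827 loci. In total RNA 182 of the 257 loci, 70.8%, were higher at 18 than at 12 DAP at an adjusted p under 0.05, and 11, 4.28%, were lower. Over all loci 24% were higher and 26.4% lower. Among loci with the same minimum level at 20 DAP, 62.8% were higher and 4.78% lower, so the 257 loci lay near the loci of like level. In polysomal RNA 211 of the 257 loci, 82.1%, were higher and 8, 3.11%, were lower, against 31.3% and 40.7% over all loci and 77% and 3.05% among loci of like level. A total of 175 loci were higher and 7 lower in both fractions, and no locus was called in opposite directions. The median change was 1.62 in total and 2.16 in polysomal RNA, against -0.31 and -0.51 over all loci. Among loci of like level it was 1.38 and 1.80.

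The scaling of the arrays had a large effect on these counts. Quantile normalization repeated over all arrays moved the median change of all loci in total RNA from -0.31 to -0.005, and cyclic loess moved it to 0.02. Cyclic loess left 95 loci higher and 26 lower in total RNA and 89 higher and 23 lower in polysomal RNA. Under that scaling 10.8% of all loci were higher and 13.9% lower in total RNA, and 10.1% and 13.1% in polysomal RNA. It turned the direction of 19 of the 193 calls in total RNA and 24 of the 219 in polysomal RNA, all of them calls of a higher level at 18 DAP. With the calls of all 3 other scalings required as well, 101 calls in total RNA and 92 in polysomal RNA kept both their call and their direction. Calls of this kind are named below as kept under all scalings.

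**Figure D3:**
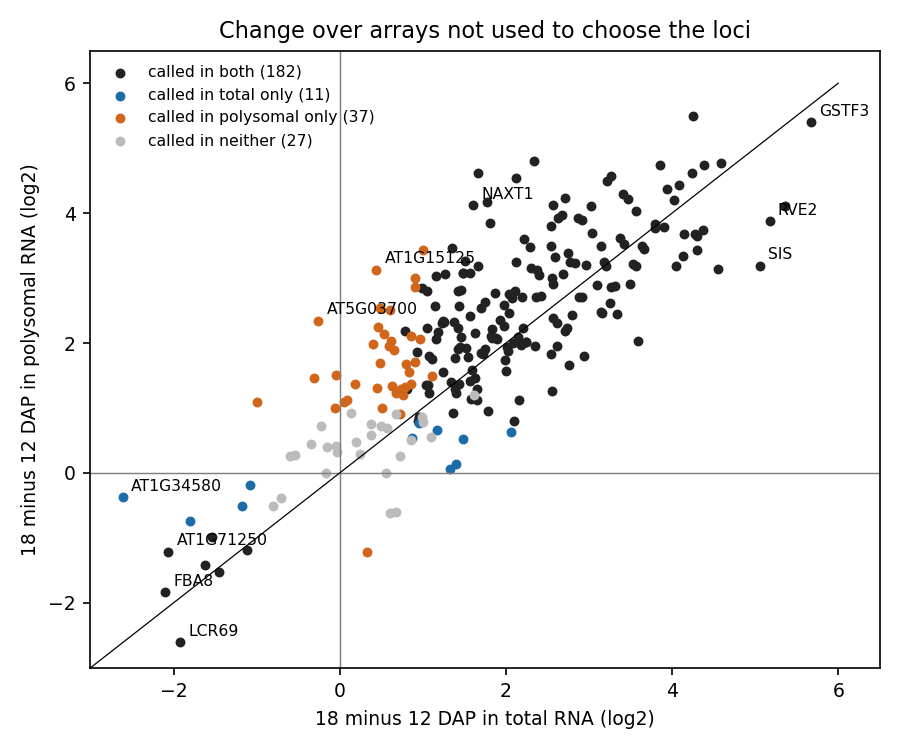
Each point is 1 of the 257 loci, with its 18 minus 12 DAP change in total RNA on the horizontal axis and in polysomal RNA on the vertical axis, in log2 units. Colours show in which fraction limma called the change, which was both for 182 loci, total RNA only for 11, polysomal RNA only for 37 and neither for 27. GSTF3 lies at the upper right with 5.67 and 5.40, and LCR69 at the lower left with -1.92 and -2.61.

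In total RNA the largest called increases from 12 to 18 DAP were those of GSTF3, AT1G15840, RVE2 and SIS. GSTF3, another phi-class glutathione S-transferase, measured 6.84, 3.93 and 3.34 at 12 DAP and 10.62, 10.46 and 10.05 at 18 DAP, a change of 5.67 ± 0.67 (SE, n = 3, adjusted p = 6.72e-06). Its first 12 DAP array was about 3 log2 units above the other two, but no 12 DAP array came near those of 18 DAP. RVE2, a MYB-like factor related to the core clock proteins, measured 3.05, 3.52 and 3.43 at 12 DAP and 8.66, 8.74 and 8.13 at 18 DAP, a change of 5.17 ± 0.35 (adjusted p = 3.1e-08). SIS, named for salt-induced serine-rich protein, rose by 5.06 ± 0.33 (adjusted p = 2.03e-08), and AT1G15840 by 5.36 ± 0.45 (adjusted p = 2.81e-07). All 4 were kept under all scalings in both fractions, and all 4 had most of this increase behind them at 15 DAP.

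A small set of loci ran the other way, with a higher level at 12 than at 15 DAP. The choice favoured low values at 15 DAP, so a low point at that stage is described and was not tested. Their mean at 12 DAP was at least 1 log2 unit above that at 15 DAP in both fractions for 14 loci, and at least 1 below it in both for 73. LCR69, a plant defensin-like small cysteine-rich protein, measured 10.08, 9.92 and 9.54 in total RNA at 12 DAP, 6.73, 6.38 and 6.53 at 15 DAP, 8.09, 7.91 and 7.77 at 18 DAP and 8.32, 8.46 and 8.42 at 20 DAP. No stages overlapped in total RNA. Its change from 12 to 18 DAP was -1.92 ± 0.30 in total (adjusted p = 7.95e-05) and -2.61 ± 0.30 in polysomal RNA (adjusted p = 3.55e-06). AT1G34580 fell by 2.61 ± 0.47 in total RNA (adjusted p = 0.000297) and measured -0.37 ± 0.47 in polysomal RNA (adjusted p = 0.476). AT1G71250 fell by 2.06 ± 0.37 in total RNA and by 1.21 ± 0.37 in polysomal RNA. The other loci lower at 18 than at 12 DAP in both fractions were FBA8, AT3G60750, PHT3;1, GH9A1 and SAG20.

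The loci below are grouped by their known roles. Both the groups, which hold 88 of the 257 loci, and the members named from them were chosen after their values were seen, except for SIP2, HB-2 and the loci already named. They are described by counts, to be read beside the shares given above. From 12 to 18 DAP 24% of all loci and 62.8% of loci of like level were called higher in total RNA. In polysomal RNA these shares were 31.3% and 77%.

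Among 6 sugar carriers, 20 minus 15 DAP ran from 1.10 to 1.84 in total RNA. From 12 to 18 DAP 5 rose in total and 6 in polysomal RNA, of which 3 and 2 were kept under all scalings. These counts cover the 6 alone, and carriers among the 257 loci without a carrier's gene name may be missing. STP4, a plasma membrane symporter of protons and hexoses, measured 3.07, 4.96 and 3.89 in total RNA at 12 DAP, 5.62, 5.30 and 5.65 at 15 DAP, 7.16, 6.83 and 6.68 at 18 DAP and 7.65, 7.25 and 7.18 at 20 DAP. Its level was higher at each stage than at the one before it, and the arrays of neighbouring stages did not overlap. STP1, a related symporter, measured 6.39, 5.59 and 6.25 in total RNA at 12 DAP and 5.51, 4.76 and 5.24 at 15 DAP, and changed by 0.40 ± 0.39 from 12 to 18 DAP (adjusted p = 0.404). In polysomal RNA STP1 rose by 1.98 ± 0.39 (adjusted p = 0.000434). ERDL6, which exports glucose from the vacuole, was the most abundant of the 6 at 20 DAP with 9.57, 9.30 and 9.33 in total RNA, against 8.08, 7.51 and 7.56 at 15 DAP. PMT5 and PMT6, symporters of polyols and monosaccharides, and SWEET1, a glucose facilitator, completed the group. PMT5 rose by 1.14 ± 0.34 in total RNA from 12 to 18 DAP, a direction that turned under cyclic loess. By gene name, the 257 loci held 2 of 10 STP genes, 2 of 4 polyol and monosaccharide transporters and 1 of 17 SWEET genes. Carriers without such a name in the annotation were not counted. The median 20 minus 15 DAP difference in total RNA was 0.07 over the 10 STP genes and -0.18 over the 17 SWEET genes.

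The genes of sugar signalling and storage sugars were higher at 18 than at 12 DAP in both fractions in 4 of 4 cases, and 3 calls in total and 2 in polysomal RNA were kept under all scalings. SIP2, an alkaline alpha-galactosidase that hydrolyses raffinose, measured 5.31, 5.54 and 5.49 in total RNA at 12 DAP, 8.72, 8.63 and 8.38 at 15 DAP, 10.13, 10.04 and 9.95 at 18 DAP and 10.27, 10.23 and 10.16 at 20 DAP, without overlap between any of these stages. The change from 12 to 18 DAP was 4.59 ± 0.33 in total (adjusted p = 4.91e-08) and 4.77 ± 0.33 in polysomal RNA (adjusted p = 3.13e-08). SIP2 was the only one of 10 listed genes of raffinose, galactinol and trehalose sugars among the 257 loci. TPS8, a trehalose-phosphate synthase-like protein of the class thought to act in signalling, measured 5.85, 5.91 and 5.96 in total RNA at 15 DAP and 8.12, 7.52 and 7.78 at 20 DAP. Its relative TPS9 measured 6.32, 5.96 and 5.80 at 15 DAP and 7.43, 7.32 and 7.22 at 20 DAP. Among the 11 trehalose-phosphate synthase genes measured these were the only members, and the family's median difference between these stages was 0.40 in total and 0.08 in polysomal RNA. SIS3, a ubiquitin ligase of the seedling response to sugar, was the last of the 4.

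SEN1, also called DARK INDUCIBLE 1, and AT2G33830, the dormancy-associated gene DRM2, are transcripts known to accumulate in dark or resting tissue. SEN1 measured 6.83, 7.07 and 7.06 in total RNA at 15 DAP and 8.53, 8.56 and 8.32 at 20 DAP, with the 18 DAP arrays already at 8.44, 8.38 and 8.39. It rose by 3.42 ± 0.36 in total RNA from 12 to 18 DAP (adjusted p = 2.04e-06), and the call was kept under all scalings. AT2G33830 had the highest total RNA mean of the 257 loci at 20 DAP, 10.68, with 10.65, 10.74 and 10.65 on the 3 arrays against 9.46, 9.40 and 9.46 at 15 DAP. Of 8 genes named DARK INDUCIBLE on the arrays, SEN1 was the only one among the 257 loci.

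Nitrogen carriers and enzymes, with 2 genes of molybdenum supply, made up 12 loci. From 12 to 18 DAP 10 of them rose in total and all 12 in polysomal RNA, and 7 and 4 of these calls were kept under all scalings. These counts cover the 12 alone. AT3G25260, another chosen locus of the NRT1/PTR family of carriers, was left out of the group. It was not called in total RNA, and its polysomal direction turned under quantile normalization repeated and under cyclic loess. AMT1;1, a high-affinity ammonium transporter, measured 6.89, 6.16 and 5.86 in total RNA at 15 DAP and 8.08, 7.82 and 7.73 at 20 DAP. In polysomal RNA it measured 6.77, 7.12 and 6.99 at 15 DAP and 8.66, 8.85 and 8.36 at 20 DAP. It rose from 12 to 18 DAP by 3.26 ± 0.40 in total RNA and by 4.57 ± 0.40 in polysomal RNA (adjusted p = 8.36e-06 and 2.61e-07). PTR3, a peptide transporter, measured 3.21, 2.26 and 4.02 in total RNA at 12 DAP and 7.53, 7.59 and 7.49 at 18 DAP, a change of 4.37 ± 0.39 (adjusted p = 4.95e-07). NRT1.7, which loads nitrate into the phloem of old leaves, was the most abundant of the 12 in total RNA at 20 DAP, at 9.40, 9.37 and 9.22. LHT1, AAT1, CAT2 and UPS2, carriers of amino acids and ureides, rose in both fractions. Of 27 NRT1/PTR genes measured 4 were chosen, and from 12 to 18 DAP 8 rose and 12 fell in total RNA. The median 20 minus 15 DAP difference in total RNA was -0.17 over these 27 genes. It was -0.07 over 6 ammonium transporters and -0.26 over 12 genes of LHT1's family. Over 9 cationic amino acid transporters it was 0.50, and over 3 nitrate and nitrite reductases 1.22.

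NIA1, a nitrate reductase, and NIR1, the nitrite reductase that follows it, were members, while NIA2, the other nitrate reductase gene, was not. NIR1 measured 7.81, 7.91 and 7.61 in total RNA at 15 DAP and 8.89, 8.97 and 9.11 at 20 DAP. NIA1 measured 6.44, 6.74 and 6.17 at 15 DAP and 8.09, 7.97 and 7.86 at 20 DAP. Neither gene's arrays overlapped between these stages, a separation that the choice itself favours. From 12 to 18 DAP NIR1 changed by 1.51 ± 0.42 in total RNA, which turned under cyclic loess, and rose by 3.27 ± 0.42 in polysomal RNA (adjusted p = 1.08e-05). CNX2, an enzyme of the molybdenum cofactor that nitrate reductase needs, rose in both fractions, and MOT2, a molybdate carrier of the vacuole, was called in polysomal RNA, a direction that also turned.

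**Figure D4:**
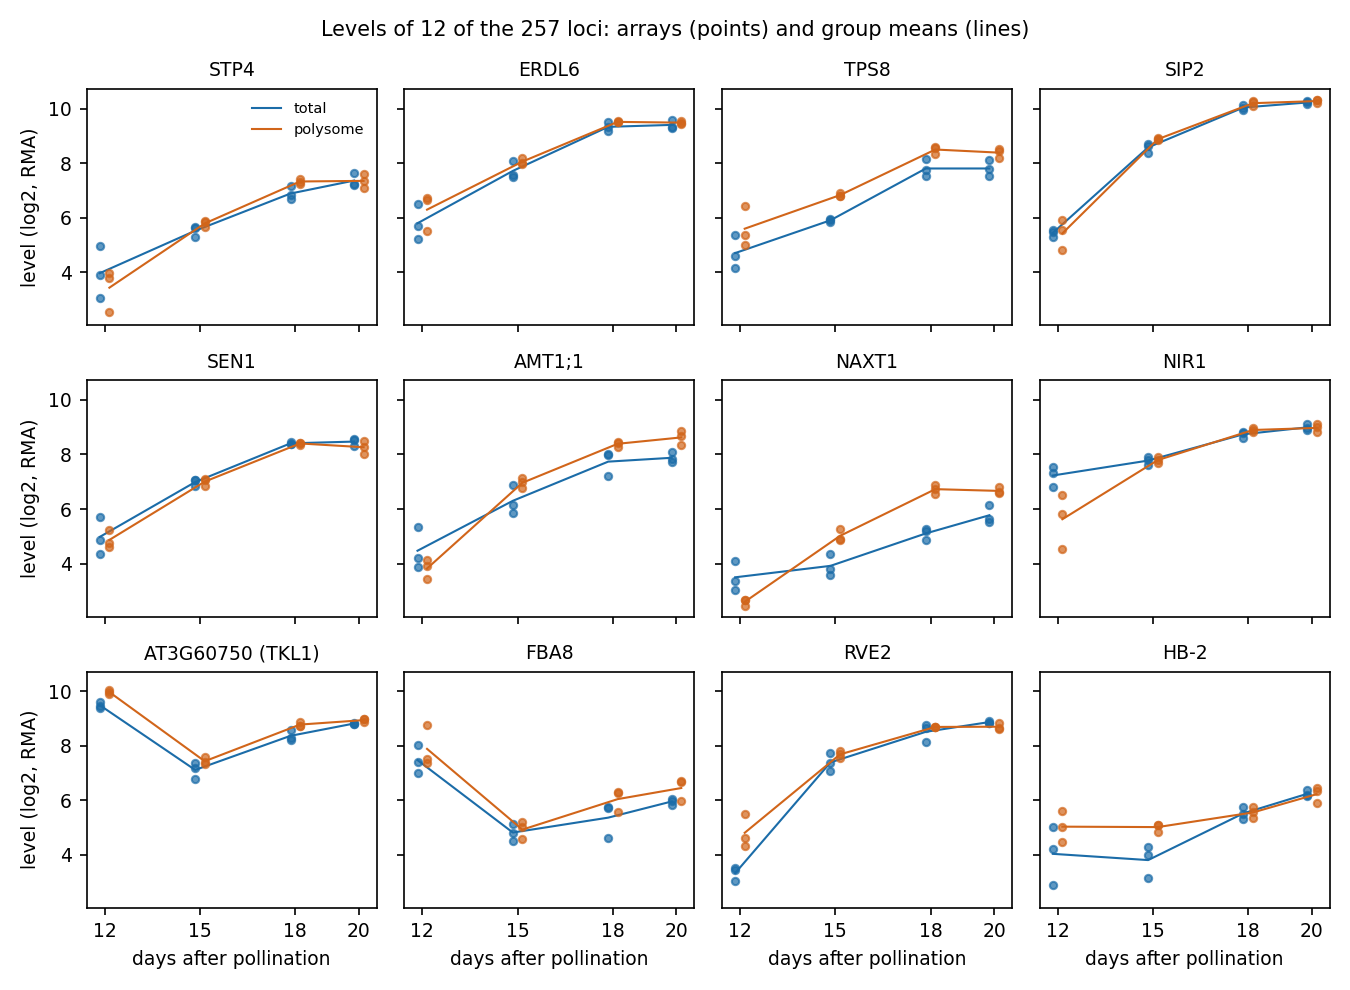
Each panel shows 1 locus, with days after pollination on the horizontal axis and the log2 level on the vertical axis. Points are single arrays and lines join group means, in blue for total and in orange for polysomal RNA. SIP2 climbs from about 5 to above 10, AT3G60750 and FBA8 are lowest at 15 DAP, and NAXT1 lies higher in polysomal than in total RNA from 15 DAP on.

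In the group of 9 ion carriers, 5 rose and 1 fell from 12 to 18 DAP in total RNA, and 7 rose and 1 fell in polysomal RNA. KAT3, a subunit that modulates inward potassium channels, measured 5.90, 5.95 and 5.99 in total RNA at 15 DAP, 7.80, 7.73 and 7.55 at 18 DAP and 8.41, 8.28 and 8.05 at 20 DAP, with no overlap between stages. KUP9, a potassium transporter, measured 7.07, 6.44 and 6.53 at 15 DAP and 8.37, 8.27 and 8.35 at 20 DAP. Both rose from 12 to 18 DAP, KAT3 by 4.13 ± 0.38 and KUP9 by 4.02 ± 0.43 in total RNA, and both were kept under all scalings in both fractions, as was ZIFL1, a carrier of the major facilitator type. ACA1 measured 3.81, 4.17 and 4.80 in total RNA at 15 DAP and 6.45, 5.75 and 6.23 at 20 DAP. Its polysomal change from 12 to 18 DAP was 1.19 ± 0.33 (adjusted p = 0.00471), but it was -0.08 with quantile normalization repeated and -0.25 with cyclic loess. YSL6 and NHX6 turned in both fractions, under cyclic loess alone. Of the calls in this group 4 in each fraction were kept under all scalings. PHT3;1, a mitochondrial phosphate carrier, fell from 8.34, 8.55 and 8.59 at 12 DAP to 7.06, 7.22 and 6.85 at 18 DAP in total RNA, with 5.59, 6.40 and 6.12 at 15 DAP in between.

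Of 7 enzymes of central carbon metabolism, 4 rose and 2 fell from 12 to 18 DAP in total RNA, and 2 rose and 2 fell in polysomal RNA, of which 3 calls and 1 call were kept under all scalings. FBP, the cytosolic fructose-1,6-bisphosphatase of sucrose synthesis and gluconeogenesis, measured 5.41, 3.78 and 5.41 in total RNA at 12 DAP, 8.26, 7.73 and 7.82 at 15 DAP and 9.32, 9.31 and 9.23 at 20 DAP. It rose by 4.30 ± 0.58 from 12 to 18 DAP (adjusted p = 2.24e-05). FBA8, a fructose-bisphosphate aldolase, measured 8.03, 7.39 and 6.997 at 12 DAP, 5.14, 4.80 and 4.52 at 15 DAP, 5.73, 4.62 and 5.75 at 18 DAP and 5.98, 5.85 and 6.05 at 20 DAP. The second 18 DAP array lay within the range of 15 DAP, and the change from 12 to 18 DAP was -2.11 ± 0.44 (adjusted p = 0.00109), kept under all scalings. AT3G60750, the transketolase TKL1 of the plastid, measured 9.45, 9.62 and 9.38 at 12 DAP, 6.79, 7.37 and 7.18 at 15 DAP and 8.81, 8.84 and 8.80 at 20 DAP. It fell by 1.12 ± 0.29 from 12 to 18 DAP in total RNA (adjusted p = 0.00471). The aspartate aminotransferase gene ASP1 was called in total RNA at 1.40 ± 0.41, a direction that turned under cyclic loess.

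There were 15 DNA-binding regulators and clock genes. From 12 to 18 DAP 11 rose and 1 fell in total RNA, and 11 rose in polysomal RNA, of which 3 and 4 calls were kept under all scalings. HB-2, a homeodomain factor of the shade response, was the only one of 16 listed genes of light regulation of germination among the 257 loci. It measured 3.15, 3.98 and 4.31 in total RNA at 15 DAP and 6.20, 6.15 and 6.37 at 20 DAP, and in polysomal RNA 5.12, 4.84 and 5.11 at 15 DAP and 6.34, 5.89 and 6.45 at 20 DAP. It rose from 12 to 18 DAP by 1.48 ± 0.46 in total RNA (adjusted p = 0.0134), and its polysomal change was 0.52 ± 0.46 (adjusted p = 0.308). RVE2, described above, measured 7.74, 7.36 and 7.08 in total RNA at 15 DAP and 8.85, 8.92 and 8.83 at 20 DAP. AT3G12320, named LNK3 for night light-inducible and clock-regulated, rose from 4.27, 3.87 and 3.92 at 12 DAP to 8.46, 8.42 and 7.92 at 18 DAP, a change of 4.24 ± 0.40 (adjusted p = 8.22e-07). Of 9 REVEILLE and LNK genes looked up, 8 were higher at 18 than at 12 DAP in each fraction and 2 were members, while none of 14 listed core clock genes was a member. AT1G22190, the AP2-type factor RAP2.4, was the most abundant regulator, at 10.24, 10.19 and 10.11 in total RNA at 20 DAP against 8.84, 8.56 and 8.67 at 15 DAP. GRF5, a growth-regulating factor of leaves, reached 2.04 in total but 1.01 in polysomal RNA between 15 and 20 DAP. COL5, a CONSTANS-like B-box protein, was the member of this group that fell from 12 to 18 DAP, by 1.17 ± 0.44 in total RNA (adjusted p = 0.0355). WRKY33, a defence regulator, was called in neither fraction. The direction turned for GLK2 in both fractions, for OBP1 in total RNA and for GRF5 in polysomal RNA.

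Hormone genes numbered 10, of which 8 rose in total and 10 in polysomal RNA from 12 to 18 DAP. In this group no direction turned, and 5 calls in each fraction were kept under all scalings. AT1G80440 and AT3G59940 encode the F-box proteins KMD1 and KMD4, which target cytokinin response regulators for degradation. AT3G59940 measured 5.23, 4.82 and 4.16 in total RNA at 12 DAP, 7.67, 7.34 and 7.89 at 15 DAP and 9.16, 9.21 and 8.92 at 20 DAP, and rose by 4.38 ± 0.35 from 12 to 18 DAP (adjusted p = 1.45e-07). AT1G80440 measured 4.53, 4.99 and 4.94 in polysomal RNA at 15 DAP and 7.23, 7.42 and 6.92 at 20 DAP. Its polysomal difference was 2.37 and its total RNA difference 1.59. KAO2, an enzyme of gibberellin synthesis, measured 6.56, 7.31 and 6.87 in total RNA at 15 DAP and 8.54, 8.29 and 8.19 at 20 DAP, while none of 16 listed gibberellin genes and none of 35 abscisic acid genes was a member. AMP1, a carboxypeptidase-like protein whose mutants have more cytokinin, AT1G76520, the auxin carrier-like PILS3, and PSKR1, the phytosulfokine receptor, rose in both fractions and were kept under all scalings. The auxin receptor AFB3 rose in polysomal RNA by 2.06 ± 0.50 (adjusted p = 0.00197), with 0.97 ± 0.50 in total RNA (adjusted p = 0.114).

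Among 10 genes of oxidative stress and detoxification, 7 rose in total and 8 in polysomal RNA from 12 to 18 DAP, with 5 and 3 kept under all scalings. OXS3, a stress tolerance factor, measured 2.34, 2.90 and 3.09 in total RNA at 12 DAP, 5.03, 4.84 and 5.73 at 15 DAP and 7.29, 7.56 and 7.29 at 20 DAP. It rose by 4.14 ± 0.36 from 12 to 18 DAP (adjusted p = 3.67e-07). RBOHD, an NADPH oxidase, measured 6.09, 5.74 and 5.65 at 15 DAP and 7.54, 7.15 and 7.10 at 20 DAP. The cytochromes P450 CYP81D8 and CYP81D11 rose in both fractions, and GSTF7, at 0.99 ± 0.56 in total RNA, was not called (adjusted p = 0.146). Members were 6 of 234 cytochrome P450 genes and 2 of 12 phi-class glutathione S-transferases. In total RNA from 12 to 18 DAP 24 of these P450 genes rose and 88 fell. Of the transferases 3 rose and 6 fell. Of 6 lipid genes, PSS1, a phosphatidylserine synthase, rose by 3.66 ± 0.31 in total RNA (adjusted p = 2.85e-07) and was kept under all scalings in both fractions, as RTFL12, a small peptide of the ROT4 type, was among 7 genes of wall and growth. RTFL12 measured 6.39, 6.30 and 5.82 in total RNA at 15 DAP and 7.84, 8.09 and 7.67 at 20 DAP. GH9A1, a cellulase needed for cellulose synthesis, fell by 1.54 ± 0.37 from 12 to 18 DAP in total RNA (adjusted p = 0.00294).

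The change from 12 to 18 DAP differed between the fractions for 12 of the 257 loci. The polysomal change was the larger for 11, 4.28%, and the smaller for 1, 0.389%, against 2.35% and 1.12% over all loci and 4.49% and 0.352% among loci of like level. The largest were AT1G15125 at 2.69 ± 0.64 (SE, adjusted p = 0.0311), AT5G03700 at 2.61 ± 0.54 (adjusted p = 0.014), NAXT1 at 2.52 ± 0.47 (adjusted p = 0.00728) and AT5G49640 at 2.46 ± 0.48 (adjusted p = 0.0106). AT5G49640 measured 8.03, 7.05 and 6.98 in total RNA at 12 DAP but 5.33, 5.33 and 4.84 in polysomal RNA, while at 18 DAP it measured 9.78, 9.74 and 9.57 in total and 9.9987, 10.07 and 9.83 in polysomal RNA. The fractions were thus far apart at 12 DAP and close at 18 DAP. With the replicate number as a block 9 loci had the larger polysomal change and 0 the smaller by limma, with 10 of the smaller at an unadjusted p under 0.05. Only NAXT1 and AT5G49640 were kept under all scalings, and the count with the larger polysomal change was 4 to 6 without any 1 of the total RNA arrays or of the other polysomal arrays of 18 DAP, 2 without the first polysomal array of 18 DAP and 7 without the second total RNA array of 12 DAP.

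At 18 DAP polysomal RNA was compared with total RNA. Since each fraction was normalized as arrays, such a difference compares a transcript with the rest and does not give its share on polysomes. A total of 68 of the 257 loci, 26.5%, were higher in polysomal RNA and 1, 0.389%, was lower, against 13.5% and 11.3% over all loci. Among loci of like level 24.4% were higher and 4.67% lower, so the share of higher calls was near that background. The median difference was 0.38 over the 257 loci, 0.29 over the loci of like level and 0.04 over all loci, and 228 of the 257 were positive. Without the third total RNA array of 18 DAP, the count of higher calls fell to 21, with 6.2% over all loci, and without 1 of the polysomal arrays of 18 DAP it was 30 to 42. Of the 69 calls, 12 were kept under all scalings.

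NAXT1, a nitrate efflux carrier, had the largest difference. It measured 5.20, 4.86 and 5.26 in total RNA and 6.74, 6.55 and 6.90 in polysomal RNA at 18 DAP, a difference of 1.62 ± 0.21 (adjusted p = 0.000138), without overlap. AT1G62020 measured 4.51, 5.45 and 4.44 in total and 6.32, 6.58 and 6.16 in polysomal RNA, a difference of 1.56 ± 0.31 (adjusted p = 0.00259). PMT5 measured 6.65, 6.35 and 6.32 in total and 7.85, 7.62 and 7.42 in polysomal RNA, a difference of 1.19 ± 0.17 (adjusted p = 0.000313). RST1, a large protein known from wax synthesis and embryo development, differed by 1.17 ± 0.16 (adjusted p = 0.000224). These 4 kept their calls under all scalings and without each single array. TPX2, a peroxiredoxin named for its thioredoxin dependence, was the 1 lower locus, with 5.57, 5.26 and 5.64 in total and 4.71, 4.94 and 4.76 in polysomal RNA. Its difference of -0.69 ± 0.22 (adjusted p = 0.0352) was not called with array medians centred or without any 1 of 5 of the 6 arrays of 18 DAP.

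**Figure D5:**
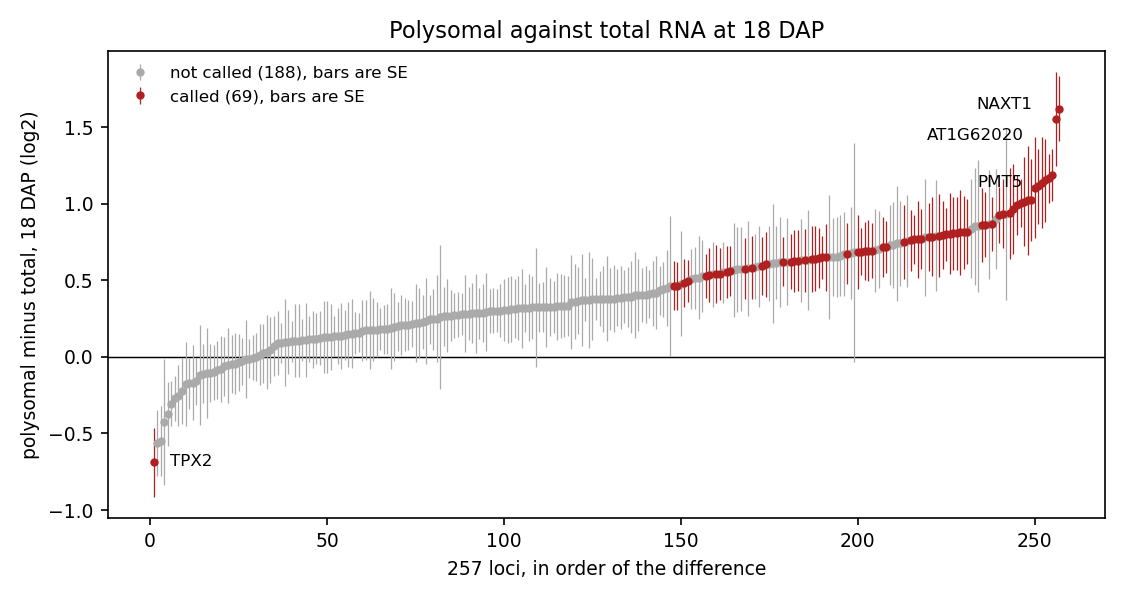
The 257 loci are ordered along the horizontal axis by the polysomal minus total difference at 18 DAP, which is on the vertical axis in log2 units. Points are estimates from limma, bars are SE, and red marks the 69 called loci. NAXT1 stands at the upper end with 1.62 and TPX2 at the lower end with -0.69.

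At 12 DAP 4 of the 257 loci, 1.56%, were higher in polysomal RNA and 8, 3.11%, were lower, against 0.906% and 4.75% over all loci and 0.724% and 6.08% among loci of like level. Leaving out any 1 of the 12 DAP arrays left 2 to 5 lower calls. The lower ones included NIA1, at -1.73, AT5G49640, at -2.19, and AT5G03700, at -1.81. At 15 and 20 DAP, where the values belong to the choice, the polysomal mean was above the total mean for 222 and 210 loci. The median difference over the 257 loci was 0.39 at 15 DAP and 0.27 at 20 DAP. It was 0.35 and 0.20 over the loci of like level, and 0.07 and 0.03 over all loci.

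None of 24 LEA protein and dehydrin genes, 25 heat shock genes, 18 storage and oil body genes, 16 genes of reserve lipid mobilisation, 15 maturation transcription factor and dormancy genes, 8 chlorophyll breakdown genes, 16 autophagy genes, 14 genes of mRNA turnover or 11 of wall loosening was a member. The share of all loci that was chosen was 0.924%. The lists did not hold every gene of these kinds. HSF A4A, 1 of 21 heat shock factors measured, and ACX5, related by name to the listed ACX1 and ACX2, were members outside the lists. In total RNA from 12 to 18 DAP 19 of the 24 LEA genes, 14 of the 16 reserve lipid genes and 13 of the 16 autophagy genes were higher, and their medians of 20 minus 15 DAP were -0.15, 0.32 and 0.12. The counts higher were 12 of 25 heat shock, 7 of 18 storage and oil body and 3 of 15 maturation and dormancy genes. They were 5 of 8 for chlorophyll breakdown, 11 of 14 for mRNA turnover and 1 of 11 for wall loosening. Over all loci 24% were higher, and 62.8% among loci of like level.

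Protein-coding genes made up 248 of the 257 loci, 96.5%, against 95.2% of all loci, and 2 long noncoding, 2 other noncoding and 2 small nucleolar RNA genes were present. The share of chosen loci ran from 0.833% on chromosome 5 to 1.05% on chromosome 4. The median gene length was 2329 bases, against 2463 bases among loci of like level. There were 9 pairs of members next to each other in the locus order, among them AMT1;1 with AT4G13505, KUP9 with AT4G19950 and SQE6 with AT5G24165. The arrays' probe sequences were not used here, so signal shared by neighbouring or near-identical genes was not assessed. LHW and AT4G25670 each had the same values on all arrays as another member, so 255 distinct measurements stand behind the 257 loci.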

How the data were processed

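Levels were measured on 24 one-colour, biotin-labelled arrays, 3 for each of the 8 groups of fraction and stage. The deposited log2 values were made by the authors with RMA, which subtracts background, normalizes arrays and summarizes probes, per the submitters' processing notes. The array design, the set of arrays normalized together and the genome build are not given in the sources used here. Arrays give no count depth, and their number limits the precision. Gene names came from RefSeq's annotation of TAIR10.1, to which 27241 of 27827 loci matched.

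The loci, gene lists, tests and alternatives were chosen with earlier results of these data known, and role groups and families after the members were seen. The tests were run with limma 3.58.1 (R 4.3.3) over all 27827 loci without a filter, with Benjamini-Hochberg adjustment and a threshold of 0.05. The change from 12 to 18 DAP used the 12 arrays of these stages (8 residual degrees of freedom). Polysomal against total RNA used 18 arrays of 15, 18 and 20 DAP at 18 DAP (12 degrees) and 6 arrays at 12 DAP (4 degrees). The steps were run on simulated data with independent noise around a common mean for each locus. That run held no differences of scale between arrays and does not bear on the effects of scaling. Loci were named as the 12 with the largest smaller difference, as members of the lists, as the 4 largest called changes in each direction for the total RNA change and for polysomal against total RNA at 18 DAP, as the 4 largest differences between fractions, and as the 2 loci on each side of each limit. Others were chosen after their values were seen. Alternatives were 3 scalings, a minimum level, a single fit to all arrays, array weights, a replicate block, other limits of the choice, and leaving out each array.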

Additional observations from a re-analysis of the deposited data

Results flagged for a closer look

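For 12 of the 257 loci the change from 12 to 18 DAP differed between polysomal and total RNA by limma's interaction test. The values below are the polysomal minus the total change in log2 units, with 3 arrays in each group. They rest on the 12 DAP arrays, whose replicates spread more widely, and the part of that spread was not tested.

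The largest was AT1G15125, at 2.69 (adjusted p = 0.0311), with a change of 0.44 in total and 3.13 in polysomal RNA. AT5G03700 followed at 2.61 (adjusted p = 0.014), with -0.26 and 2.35. NAXT1, the nitrate efflux carrier, differed by 2.52 (adjusted p = 0.00728) and AT5G49640 by 2.46 (adjusted p = 0.0106). These last 2 loci also kept their calls under the 3 other scalings.

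AT1G60750 differed by 2.41 (adjusted p = 0.0468), AT5G55510 by 2.4 (adjusted p = 0.0132), AT1G04360, the ubiquitin ligase-like ATL1, by 2.11 (adjusted p = 0.0365), and AT5G55370 by 2.06 (adjusted p = 0.016). The nitrate reductase gene NIA1 differed by 1.9 (adjusted p = 0.0445), with 0.61 in total and 2.51 in polysomal RNA. AT5G11650 differed by 1.85 (adjusted p = 0.0408), and RHM3 by 1.78 (adjusted p = 0.0441), with -0.31 in total and 1.47 in polysomal RNA. SIS went the other way at -1.87 (adjusted p = 0.0381), with 5.06 in total and 3.19 in polysomal RNA.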

How the results depend on the processing

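The choice of loci depended on its limits and on the scaling. It found 152 loci with quantile normalization repeated, of which 142 were among the 257, 161 with cyclic loess, of which 157 were, 522 with a limit of 0.8, 45 with a limit of 1.5, 105 with a minimum level of 7, and 232 to 278 without 1 array. All 257 loci kept positive differences in both fractions under the 3 scalings. The cause of the effects of scaling was not tested. Shares below are those of all loci tested in the same setting, higher first.

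With quantile normalization repeated, 121 of the 257 loci were higher and 15 lower from 12 to 18 DAP in total RNA (all loci 14.4% and 12.1%), 124 and 19 in polysomal RNA (15.4% and 12.3%), and 8 had the larger and 4 the smaller polysomal change (1.77% and 0.845%). At 18 DAP 17 were higher and 4 lower in polysomal than in total RNA (7.07% and 6.33%), and at 12 DAP 2 and 4 (0.589% and 2.44%). With cyclic loess, 95 and 26 were called in total RNA (10.8% and 13.9%), 89 and 23 in polysomal RNA (10.1% and 13.1%), and 2 and 2 between fractions (1.13% and 0.496%). Polysomal against total RNA then gave 13 higher and 6 lower at 18 DAP (5.6% and 8.49%), and 6 and 4 at 12 DAP (0.812% and 4.23%). Under these 2 scalings ACA1's polysomal change was -0.08 and -0.25. With array medians centred, 226 were higher and 3 lower in polysomal RNA from 12 to 18 DAP (37.6% and 25.3%). At 18 DAP 107 were then higher and 0 lower by limma (22.4% and 8.48%), with 1 lower at an unadjusted p under 0.05. Between fractions 16 and 0 were called (2.89% and 0.751%), with 7 lower unadjusted.

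Among loci with a mean of at least 5, 19 and 2 differed between fractions (7.94% and 0.773%), and 76 were higher and 2 lower on polysomes at 18 DAP (34% and 5.62%). A single fit over all arrays, in which the noisier 12 DAP arrays share 1 spread with the others, gave 38 and 9 between fractions (7.49% and 6.9%), 10 and 0 at 18 DAP (2.71% and 5.38%, with 1 lower unadjusted), and 39 and 43 at 12 DAP (16% and 15.4%).

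Without 1 array, 152 to 188 loci were higher and 9 to 12 lower in total RNA (20.4% to 25% and 19.9% to 28.2%), 197 to 212 and 6 to 9 in polysomal RNA (28.2% to 31.9% and 34.4% to 42%), and 2 to 15 and 0 to 2 between fractions (1.02% to 3.18% and 0.273% to 1.86%). Polysomal against total RNA gave 21 to 76 and 0 to 2 at 18 DAP (6.2% to 14.4% and 6.2% to 12.4%), and 0 to 4 and 2 to 5 at 12 DAP (0.234% to 0.539% and 3.03% to 4.09%).

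Same-numbered replicates correlated at -0.059 to 0.244 over all pairs of groups. Between 18 and 20 DAP they correlated at 0.096 to 0.244 in total RNA, against -0.208 to 0.003 for other numbers, and at 0.045 to 0.217 in polysomal RNA, against -0.178 to 0.029. This is a hint from the data that numbers go together at these stages. The plants were grown in blocks, but the labels do not say that a number names a block, and not every correlation was over 0.1, so the block was kept as an alternative. The replicate block gave 180 higher and 11 lower in total RNA, 212 and 8 in polysomal RNA, 9 and 0 between fractions (10 lower unadjusted), 73 and 1 at 18 DAP, and 4 and 6 at 12 DAP. The planned share of promoters with a motif was not run, as no promoter sequences were used here.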
